A study of Mus musculus with 15 samples.

Results

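The response of the liver to di(2-ethylhexyl) phthalate (DEHP) was followed in mice that lack peroxisome proliferator-activated receptor α (PPARα). All arrays of PPARα-null animals in the series were used, 7 of 15, and they were chosen by genotype and treatment alone. In the DEHP group 3 null mice (KO-121, KO-122 and KO-123) received DEHP at 1150 mg/kg/day in corn oil by gavage, once a day for 4 days. In the control group 4 null mice (KO-115, KO-116, KO-117 and KO-118) received corn oil alone by the same route. Both groups carried the same whole-body disruption of Ppara (129S4/SvJae-Pparatm1Gonz/J), so they did not differ in genotype by their labels. The mice were males of 7.5 months, give or take 2.5 weeks, and each array held RNA from the liver of 1 animal. Wild-type males of the same age (129S1/SvlmJ, 4 on corn oil and 4 on the same dose of DEHP) entered the same model. They helped set the spread that every test used, and they show where the null response was shared or differed. For them substrain and genotype cannot be told apart.

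DEHP is a plasticizer whose hydrolysis product activates PPARα, a nuclear receptor of fatty acids that switches on peroxisomal and mitochondrial fatty acid oxidation in rodent liver. The constitutive androstane receptor (CAR) and the pregnane X receptor (PXR) are nuclear receptors of hepatocytes that respond to foreign compounds. Their targets include cytochromes P450 of the Cyp2b, Cyp2c and Cyp3a families, carboxylesterases and glutathione transferases. The title of the series names activation of PPARα and CAR as its subject, and null animals show what DEHP did where the first of these receptors was missing.

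The promoters of 4 genes described below are shown first. Cyp2b10 and Cyp2c55 are cytochromes P450 of the CAR response, and Hmgcs1 and Idi1 encode enzymes of cholesterol synthesis. For each, the 250 bases before the transcription start are given 5′ to 3′ on the gene's own strand, which is the plus strand for all 4, from RefSeq on build GRCm38.p6. The windows lie at chr7:25897408-25897657 for Cyp2b10, chr19:39006769-39007018 for Cyp2c55, chr13:119690101-119690350 for Hmgcs1 and chr13:8885356-8885605 for Idi1. Capitals mark matches, on either strand, to the sterol regulatory element TCACNCCAC and to the CCAAT box, which reads ATTGG on the other strand. The sterol element is the site known for the transcription factor SREBP.
Cyp2b10: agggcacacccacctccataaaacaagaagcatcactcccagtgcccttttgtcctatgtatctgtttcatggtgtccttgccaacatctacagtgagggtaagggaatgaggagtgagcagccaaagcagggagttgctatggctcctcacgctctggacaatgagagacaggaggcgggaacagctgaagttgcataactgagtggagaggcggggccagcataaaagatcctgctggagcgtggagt
Cyp2c55: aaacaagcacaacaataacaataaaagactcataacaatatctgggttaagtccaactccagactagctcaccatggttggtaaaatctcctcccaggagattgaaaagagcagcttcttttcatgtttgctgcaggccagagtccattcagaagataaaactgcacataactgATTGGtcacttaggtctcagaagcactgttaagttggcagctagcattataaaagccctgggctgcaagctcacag
Hmgcs1: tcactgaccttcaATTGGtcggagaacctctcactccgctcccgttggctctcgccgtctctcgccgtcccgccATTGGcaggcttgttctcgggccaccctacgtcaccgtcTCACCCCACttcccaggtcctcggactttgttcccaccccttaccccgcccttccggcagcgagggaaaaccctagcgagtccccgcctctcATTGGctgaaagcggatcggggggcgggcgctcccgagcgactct
Idi1: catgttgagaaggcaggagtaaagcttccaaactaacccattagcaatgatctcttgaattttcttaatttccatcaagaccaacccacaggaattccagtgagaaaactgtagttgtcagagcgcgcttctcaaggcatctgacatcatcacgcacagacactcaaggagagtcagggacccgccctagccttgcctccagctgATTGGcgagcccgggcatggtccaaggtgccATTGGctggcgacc
The Hmgcs1 window held 1 sterol element, which begins at position -137 from the start, and 3 CCAAT boxes. The Idi1 window held 2 CCAAT boxes and the Cyp2c55 window 1, while these letters were not in the Cyp2b10 window. Of 32851 mouse promoter windows of this length in the RefSeq table, 1.05% held the sterol element and 33.8% a CCAAT box. Of the 19 cholesterol synthesis and SREBP2 target genes with a window in that table, 18 held a CCAAT box (37.5% of all 27025 genes did) and 1, Hmgcs1, the sterol element. A further pair of motifs was searched and is not marked: the antioxidant response core TGACNNNGC, in 10.2% of windows, and the SMAD palindrome GGCGCC, in 9.59%, each in 3 of the 19. A match describes letters and is not evidence of binding.

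Values were log2 of the deposited probe set intensities, and 19938 genes had a probe set of exactly 1 symbol. Median intensity ran from 44.4 to 47.5 over the 15 arrays, and null arrays correlated across probe sets at r = 0.988 to 0.991 within groups (9 pairs) and 0.985 to 0.992 between groups (12 pairs). The 9 measured hepatocyte markers, such as Alb and Ttr, summed to intensities of 78333 to 84262 in the null controls and 80853 to 85784 in the DEHP animals. Markers of skeletal muscle stood apart in 1 animal. The 5 muscle genes Acta1, Ckm, Myh4, Mb and Tnnt3 summed to 2946 in KO-121, against 240 to 296 in the controls, 263 in KO-122 and 249 in KO-123. Marker sums of Kupffer cells and macrophages overlapped between groups (3663 to 4582 in controls, 3826 to 4619 with DEHP). Endothelial sums overlapped only narrowly (4347 to 4709 in controls, 4697 to 5101 with DEHP). Of the 14 endothelial markers 11 had positive differences (median 0.12 on the log2 scale), and 0 were called. In such bulk tissue, fewer cells of a type and less RNA per cell cannot be told apart. The single Ppara probe set read 8.99, 9.24, 9.10 and 9.01 (log2 intensity) in the controls and 9.11, 9.27 and 9.12 with DEHP. No source used here gives the stretch of the gene it covers, so these values check nothing about the deletion.

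DEHP changed 94 genes in null livers, 0.471% of the 19938 tested (limma, p adjusted by Benjamini-Hochberg over all genes and below 0.05). Of these, 32 rose (0.16%) and 62 fell (0.311%), and only such genes are said below to have risen or fallen. In 28 of them the change was at least 1.5-fold and in 5 at least 2-fold, and in none of the 94 did the groups overlap. Across all 19938 genes 1991 (9.99%) had groups without overlap, and 2450 had an unadjusted p below 0.05. The model held all 15 arrays and shared 1 spread between groups. With only the 7 null arrays in the model, 1 gene, Cyp2c55, was called. Leaving out single animals moved the count by over 1.5 times for 6 of the 7, to 47 without KO-115, 168 without KO-116, 19 without KO-117, 21 without KO-118, 9 without KO-122 and 34 without KO-123. Without KO-121, the animal with muscle transcripts, 139 were called. Rises made up 34.0% of the 94 calls, 19.3% of 161 calls after quantile normalization and 50% of 34 calls after subtraction of each array's median. In each of the 7 fits that left out 1 null animal, 8 genes were called: Cyp2c55, Cyp2b10, Cyp2c29, Acsm2, Ldhd and Hacl1, which rose, and Fabp2 and Lyz1, which fell.

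Among the rises were 4 cytochromes P450 of the CAR list, and 1 of them, Cyp2c55, had the largest rise of all genes called. Cyp2c55, a cytochrome of low basal expression, read 4.33, 4.72, 4.05 and 4.41 in the controls and 6.14, 6.41 and 6.81 in KO-121, KO-122 and KO-123. Every DEHP animal lay more than 1 log2 unit above every control, and the gene rose 4.22-fold (2.08 ± 0.17 on the log2 scale, standard error, limma adjusted p = 3.86e-05). Cyp2b10, the classical target of CAR, read 6.76, 6.83, 6.92 and 7.37 in the controls and 8.43, 8.91 and 8.23 with DEHP. Control KO-118 was the highest of its group but stayed below every DEHP animal, and Cyp2b10 rose 2.93-fold (1.55 ± 0.16, adjusted p = 0.000635). Cyp2c29, an abundant hepatic cytochrome, read 12.33, 12.37, 12.18 and 12.51 against 12.86, 13.07 and 13.01. Its groups lay apart too, and it rose 1.55-fold (0.64 ± 0.07, adjusted p = 0.00157). Cyp2c37 read 10.50, 10.58, 10.45 and 10.82 against 11.21, 11.41 and 11.81 and rose 1.85-fold (0.88 ± 0.15, adjusted p = 0.0213). It was called in 4 of the 7 fits that left out an animal. Members of the Cyp2c and Cyp3a families are close in sequence, and no source used here gives how far their probe sets read each other.

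**Figure D1:**
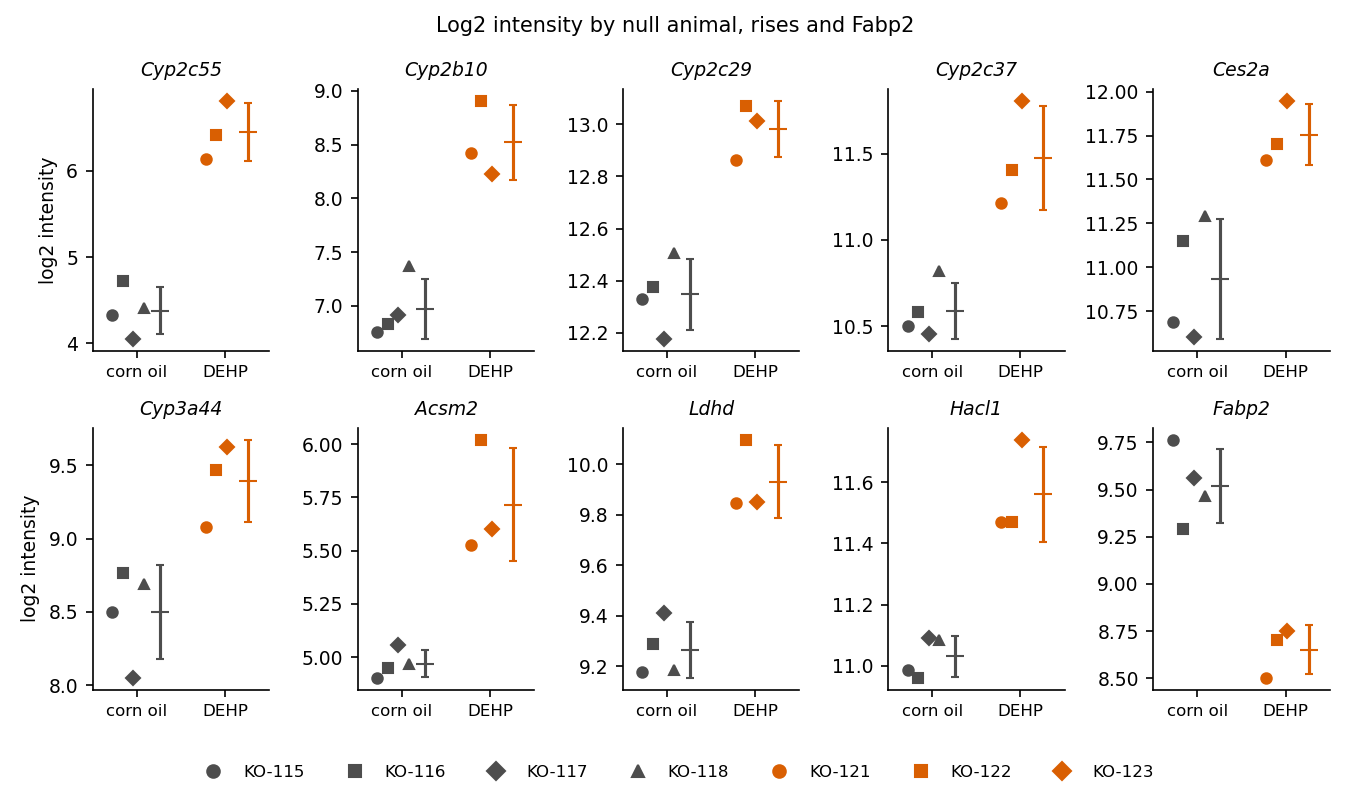
Log2 intensity of 10 genes in each of the 7 null animals, controls on the left and DEHP animals on the right of each panel; horizontal bars with whiskers are group means ± SD (n = 4 and n = 3). In all 10 panels the groups do not overlap; Cyp2c55 runs from 4.05 to 4.72 in controls and from 6.14 to 6.81 with DEHP, and Fabp2 alone is lower with DEHP.

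Of 30 measured CAR targets 8 rose and 0 fell, against 0.16% and 0.311% of all genes. Their median difference was 0.29 on the log2 scale, against 0.01 over all genes, and 24 of the 30 were positive. Besides the cytochromes above, the 8 were Ces2a, Aldh1a1, Gstm1 and Ephx1. The carboxylesterase Ces2a read 10.69, 11.15, 10.60 and 11.29 in controls and 11.61, 11.70 and 11.95 with DEHP. Controls KO-116 and KO-118 were nearest to the DEHP animals, and Ces2a rose 1.77-fold (0.82 ± 0.13, adjusted p = 0.0213). Gstm1, a glutathione transferase, rose by 0.38 ± 0.07 (adjusted p = 0.0351), Ephx1, the microsomal epoxide hydrolase, by 0.40 ± 0.08 (adjusted p = 0.0405) and Aldh1a1, a retinal dehydrogenase, by 0.34 ± 0.06 (adjusted p = 0.0329). These were small changes of abundant transcripts, with control means above 12 on the log2 scale, and Ephx1 was called in 0 of the 7 fits that left out an animal. The count of CAR targets called stayed at 7 without KO-115, KO-116 or KO-121 and was 5 without KO-118, 4 without KO-117 and 3 without KO-122 or KO-123. Per animal, the median of the 30 targets relative to the control mean was -0.01, 0.01, -0.10 and 0.06 in the controls and 0.19, 0.33 and 0.30 in the DEHP animals. Nr1i3, which encodes CAR itself, read 11.18 to 11.46 in controls and 11.24 to 11.47 with DEHP, overlapping ranges (0.01 ± 0.10, adjusted p = 0.972).

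Targets of PXR shared several of these genes. Of 15 measured, 5 rose and 0 fell, against 0.16% and 0.311% of all genes, with a median of 0.36. The 5 included Cyp2c55, Ces2a, Aldh1a1 and Gstm1, which the CAR list also holds. Cyp3a44, a female-biased Cyp3a cytochrome, read 8.50, 8.76, 8.05 and 8.69 in controls and 9.08, 9.47 and 9.63 with DEHP and rose 1.86-fold (0.89 ± 0.17, adjusted p = 0.0351). Cyp3a11, the main Cyp3a form of male liver, read 12.01, 12.16, 11.78 and 12.08 against 12.19, 12.42 and 12.58. Its groups did not overlap, though control KO-116 came close to KO-121, and the difference of 0.39 ± 0.10 did not pass (adjusted p = 0.0826). The count of PXR targets called was 2 without KO-117 or KO-118 and 1 without KO-122 or KO-123. Nr1i2, which encodes PXR, differed by -0.10 ± 0.08 (adjusted p = 0.658).

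Other programmes of drug metabolism held few calls. Of 30 targets of NRF2, the sensor of electrophiles, 2 rose and 0 fell (median 0.08), against 0.16% and 0.311% of all genes. The 2 were Gstm1 and Ephx1 again. The count was 1 without KO-116, and 0 without KO-117, KO-118, KO-122 or KO-123 and after quantile normalization, while without KO-121 0 rose and 1 fell. Nqo1, a quinone reductase and a standard NRF2 target, read 6.11, 5.79, 5.62 and 5.91 in controls and 6.05, 6.24 and 6.07 with DEHP, with KO-115 inside the DEHP range (0.26 ± 0.13, adjusted p = 0.464). None of 7 aryl hydrocarbon receptor targets was called, with 1 at an unadjusted p below 0.05. Among them Cyp1a1 read 4.34 to 4.35 in controls and 3.87 to 4.50 with DEHP. Cyp1a2, which is high in pericentral hepatocytes, read 12.41 to 12.69 in controls and 12.78 to 12.93 with DEHP (0.31 ± 0.08, adjusted p = 0.107). None of 18 UDP-glucuronosyltransferases and sulfotransferases (median 0.03), 21 hepatic transporters (0.09) or 12 heme synthesis genes (0.11) was called by limma. In this order 3, 3 and 4 had an unadjusted p below 0.05, against 2450 of all 19938 genes. All 12 carboxylesterases had positive differences (median 0.18). Ces2a was the single call, against rises in 0.16% of all genes, and it was lost without KO-122 or KO-123. Relative to the control mean, the median of the 12 overlapped between groups. It was 0.07, 0.10, -0.35 and 0.20 in the controls and 0.15, 0.12 and 0.30 with DEHP. Cyb5r3, the cytochrome b5 reductase, stood just past the threshold at 0.34 ± 0.08 (adjusted p = 0.0601), with groups apart.

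**Figure D2:**
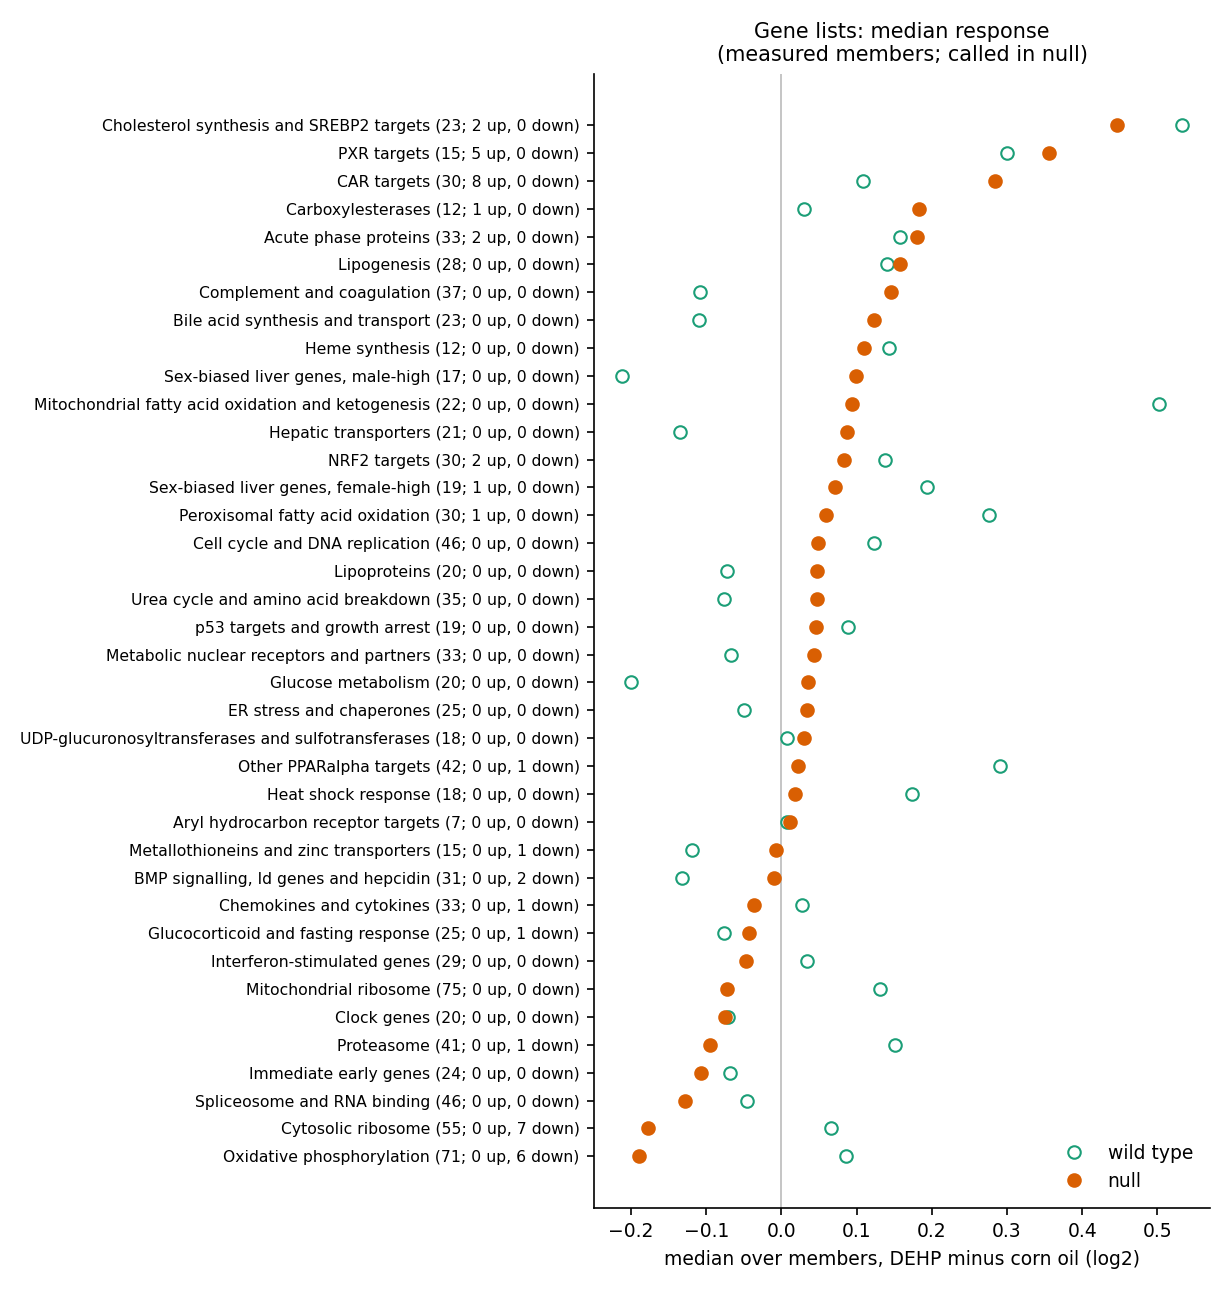
Median log2 difference, DEHP minus corn oil, over the measured members of 38 gene lists in null (filled) and wild-type (open) livers; the text beside each list gives its measured members and how many were called up and down in null livers. Cholesterol synthesis (0.45), PXR targets (0.36) and CAR targets (0.29) have the highest null medians; oxidative phosphorylation (-0.19) and the cytosolic ribosome (-0.18) have the lowest.

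The rises also held Acsm2, Acsm1, Ldhd, Acsf2 and Hacl1, described here gene by gene since no single list holds all 5. Acsm2, a medium-chain acyl-CoA synthetase, read 4.90, 4.95, 5.06 and 4.97 in controls and 5.53, 6.02 and 5.60 with DEHP. The controls lay close together below every DEHP animal, and Acsm2 rose 1.68-fold (0.75 ± 0.10, adjusted p = 0.0054). Its relative Acsm1 rose by 0.39 ± 0.08 (adjusted p = 0.0351), from control values of 11.10 to 11.21. Ldhd, the mitochondrial D-lactate dehydrogenase, read 9.18, 9.29, 9.41 and 9.19 against 9.85, 10.10 and 9.85 and rose 1.59-fold (0.67 ± 0.08, adjusted p = 0.00157). Acsf2, another acyl-CoA synthetase of mitochondria, read 8.97, 8.82, 8.90 and 8.77 against 9.48, 9.49 and 9.44. Its DEHP animals were nearly equal and above every control, and it rose 1.52-fold (0.60 ± 0.10, adjusted p = 0.0242). Hacl1, the peroxisomal lyase of α-oxidation, read 10.98, 10.96, 11.09 and 11.08 against 11.47, 11.47 and 11.74 and rose 1.44-fold (0.53 ± 0.08, adjusted p = 0.014).

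Hacl1 was the 1 call among 30 genes of peroxisomal fatty acid oxidation (null median 0.06), against rises in 0.16% of all genes. None of 22 genes of mitochondrial fatty acid oxidation and ketogenesis was called (median 0.09). An unadjusted p below 0.05 in limma was found in 4 of the 22, against 2450 of all 19938 genes. The 2 of lowest p there had opposite signs: Hadh, a β-oxidation dehydrogenase, was at 0.22 ± 0.07 (adjusted p = 0.191) and Etfa, an electron acceptor of that pathway, at -0.33 ± 0.07 (adjusted p = 0.0645). Of 42 other PPARα targets 0 rose and 1 fell (median 0.02), against 0.16% and 0.311% of all genes. Cyp4a10 and Cyp4a14, ω-hydroxylases and the most used readouts of PPARα, read 4.91 to 5.21 and 4.58 to 5.85 with DEHP against 4.86 to 5.87 and 4.22 to 6.74 in the controls, with KO-115 the highest control for both. The pantetheinase Vnn1 (0.04 ± 0.29), the fatty acid transporter Cd36 (-0.04 ± 0.17), the thioesterase Acot1 (-0.28 ± 0.29) and the bifunctional enzyme Ehhadh (0.32 ± 0.17) had overlapping groups, with adjusted p from 0.463 to 0.975. Pdk4, which restrains pyruvate oxidation, also overlapped (0.54 ± 0.25, adjusted p = 0.396). Fgf21, a fasting hormone, read 5.67 to 5.79 in controls and 5.19 to 5.49 with DEHP (-0.36 ± 0.19, adjusted p = 0.468). Of the other PPAR receptors, Ppard differed by 0.05 ± 0.06 and Pparg by 0.06 ± 0.12 (adjusted p = 0.82 and 0.897).

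The 1 call among these 42 was a fall. Fabp2, the intestinal fatty acid binding protein, read 9.76, 9.29, 9.56 and 9.47 in controls and 8.50, 8.70 and 8.75 with DEHP. Every DEHP animal was below every control, and Fabp2 fell by 0.87 ± 0.11 on the log2 scale (fold 0.547, adjusted p = 0.00412). In wild-type livers the same gene rose by 0.61 (adjusted p = 0.00353). The null response minus the wild-type response was -1.48 (adjusted p of the difference 0.000192), the lowest p of this test among the 94 genes.

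Genes of cholesterol synthesis had the highest median of the 38 lists, 0.45 over 23 measured genes, with 19 positive. In 14 of the 23 the groups did not overlap, against 9.99% of all genes. Of the 23, 2 rose and 0 fell, against 0.16% and 0.311% of all genes. They were Hmgcs1, the cytosolic HMG-CoA synthase at the head of the pathway, and Idi1, the isopentenyl diphosphate isomerase. Hmgcs1 read 11.08, 10.39, 10.55 and 10.49 in controls and 11.40, 11.38 and 11.38 with DEHP. Control KO-115 stood near the DEHP animals, and Hmgcs1 rose 1.69-fold (0.76 ± 0.16, adjusted p = 0.0455). Idi1 read 11.67, 11.26, 11.22 and 11.41 against 11.87, 12.14 and 12.06 and rose 1.55-fold (0.64 ± 0.13, adjusted p = 0.0405). KO-115 was the highest control there as well, and without it 5 of the 23 were called. The count was 1 without KO-121, 0 without any 1 of the other 5 animals and 0 after subtraction of each array's median. Per animal the median of the 23 was 0.24, -0.13, -0.15 and 0.04 in the controls and 0.45, 0.37 and 0.41 with DEHP.

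Downstream and neighbouring pathways of lipid metabolism held no call. Of 28 genes of lipogenesis, with a median of 0.16 and 10 at an unadjusted p below 0.05 in limma, Agpat2, an acyltransferase of triglyceride synthesis, was at 0.27 ± 0.07 (adjusted p = 0.0938) and Elovl5, a fatty acid elongase, at 0.31 ± 0.08 (adjusted p = 0.109). Cyp7a1, the hydroxylase that controls the first step from cholesterol to bile acids, read 8.82, 9.54, 7.38 and 9.39 in controls and 9.74 and 10.25 in KO-122 and KO-123, with KO-121 the highest of all. The groups did not overlap, but KO-117 was more than 1 log2 unit below the other controls, and the 2.93-fold difference did not pass (1.55 ± 0.45, adjusted p = 0.13). Cyp8b1, the sterol 12α-hydroxylase, read 10.89 to 11.27 in controls and 11.59 to 11.90 with DEHP (0.69 ± 0.18, adjusted p = 0.0953). Akr1d1, the Δ4-3-oxosteroid reductase of the same pathway, was at 0.40 ± 0.11 (adjusted p = 0.101). The median of 23 bile acid genes was 0.12, of 20 lipoprotein genes 0.05 and of 20 glucose genes 0.04. For 35 genes of the urea cycle and amino acid breakdown it was 0.05. After quantile normalization these medians were 0.02, -0.02, -0.02 and -0.04. Each list held 0 calls by limma. In the same order 7, 3, 3 and 6 genes had an unadjusted p below 0.05, against 2450 of all 19938 genes.

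Among 33 acute phase proteins 2 rose and 0 fell (median 0.18), against 0.16% and 0.311% of all genes. Orm1, which encodes the serum protein orosomucoid, read 12.35, 12.47, 12.49 and 12.35 in controls and 12.90, 13.30 and 12.71 with DEHP and rose 1.47-fold (0.56 ± 0.10, adjusted p = 0.0329). Its relative Orm2 read 8.56, 8.58, 9.24 and 8.11 against 10.46, 11.34 and 9.31 and rose 3.36-fold (1.75 ± 0.36, adjusted p = 0.0442). KO-122 was the highest animal and KO-123 the lowest DEHP animal for both. The serum amyloid genes Saa1 and Saa2 split the DEHP group. Saa1 read 11.06 and 11.59 in KO-121 and KO-122 and 7.95 in KO-123, against 7.66 to 9.51 in the controls (1.86 ± 0.63, adjusted p = 0.205). Saa2 read 11.60, 12.42 and 8.17 against 8.16 to 9.66, and Lcn2, a siderophore-binding protein, read 11.10, 12.39 and 8.81 against 8.01 to 10.48. For these 3 genes KO-123 lay within the control range, and the test was not passed (adjusted p = 0.212 for Saa2 and 0.276 for Lcn2). Per animal the median of the 33 was 0.12 in KO-121, 0.47 in KO-122 and 0.01 in KO-123, against -0.04 to 0.05 in the controls. Without KO-123, 4 members were called, 2 without KO-121, 1 without KO-116, and 0 without any 1 of the other 4 animals. Orm1, Orm2 and their neighbours are near-identical genes, so their probe sets may share signal.

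The metallothioneins, zinc-binding proteins of stress and acute phase, showed a similar order of animals. Mt1 read 9.41, 10.73, 10.96 and 10.75 in controls and 12.07, 12.43 and 11.26 with DEHP, where KO-115 was the lowest control (1.45 ± 0.38, adjusted p = 0.0902). Mt2 read 8.34, 9.61, 10.44 and 10.03 against 11.40, 11.83 and 10.31, so that KO-123 overlapped the controls (1.58 ± 0.48, adjusted p = 0.154). The 1 call of that list of 15 was a fall, against falls in 0.311% of all genes. Slc39a4, the zinc importer ZIP4, read 9.20, 9.10, 9.07 and 9.34 in controls and 8.51, 8.40 and 8.81 with DEHP (-0.61 ± 0.11, adjusted p = 0.0329), and it was called in 2 of the 7 fits that left out an animal. Complement and coagulation genes, other secreted products of hepatocytes, held no call among 37. Of these, 34 had positive differences (median 0.15) and 17 an unadjusted p below 0.05, against 10883 and 2450 of all 19938 genes. The median of the 37 was 0.07 after quantile normalization. Per animal it was 0.10 in KO-121, 0.26 in KO-122 and 0.07 in KO-123, against -0.02 to 0.03 in the controls. Serpind1 (heparin cofactor II) was at 0.25 ± 0.06 (adjusted p = 0.0624) and F7 (coagulation factor VII) at 0.22 ± 0.07 (adjusted p = 0.134). In wild-type livers 9 of these 37 fell and 1 rose (median -0.11), against 1.57% and 2.29% of all genes. The null minus wild-type response was called by limma as positive in 4 of the 37, against 67 of all 19938 genes. Among the 4 were Serpind1 (0.45, adjusted p = 0.0142) and F7 (0.49, adjusted p = 0.0178).

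**Figure D3:**
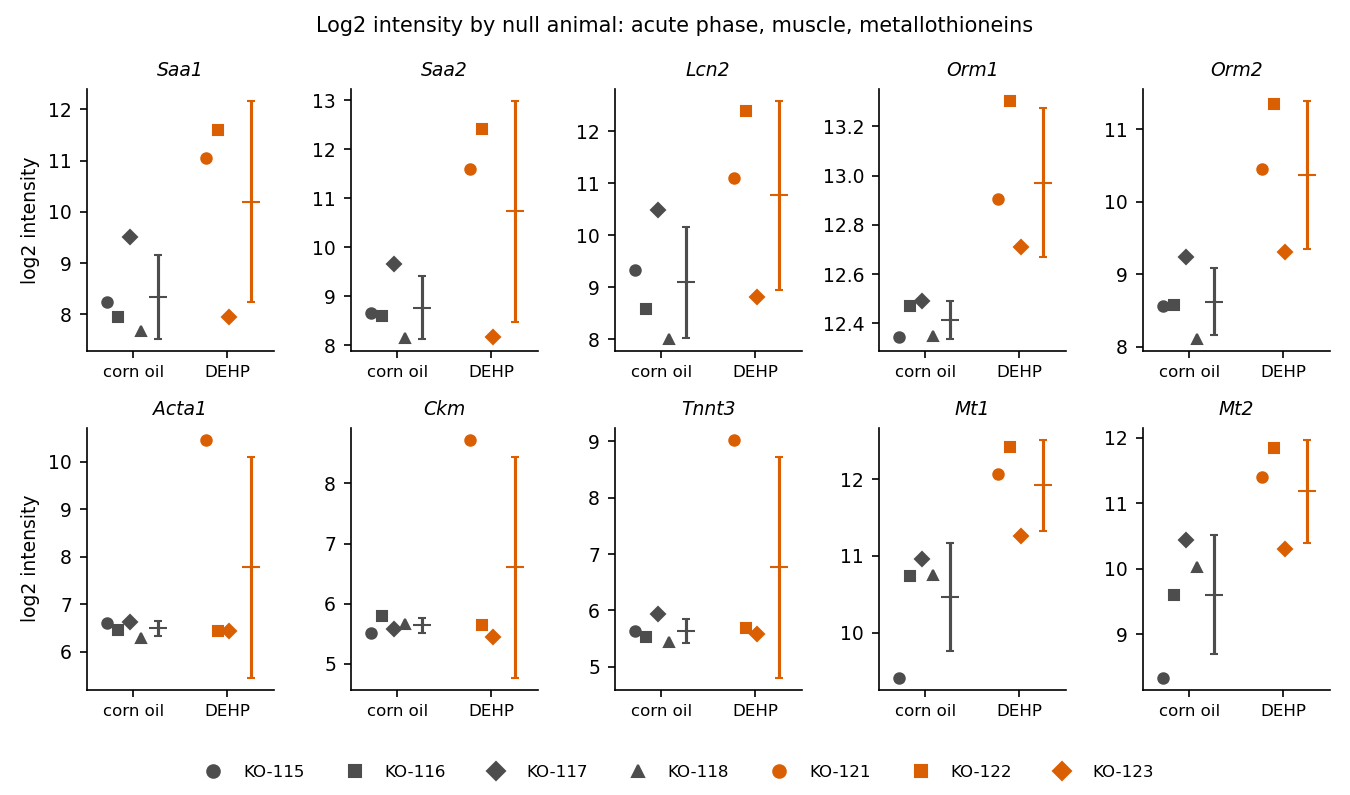
Log2 intensity of acute phase genes, muscle genes and metallothioneins in each null animal, with group means ± SD (n = 4 controls, n = 3 DEHP). Saa1, Saa2 and Lcn2 are high in KO-121 and KO-122 and not in KO-123; Acta1, Ckm and Tnnt3 are high in KO-121 alone, where Acta1 reads 10.46 against 6.29 to 6.63 in the controls.

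The 62 falls were mostly moderate, with a median of -0.48 on the log2 scale. They included genes of the cytosolic ribosome and of oxidative phosphorylation, and 20 of the 62 were in at least 1 gene list. Of 55 measured proteins of the cytosolic ribosome 7 fell and 0 rose (median -0.18), against 0.311% and 0.16% of all genes. Rps13 read 9.95, 9.95, 10.05 and 10.19 in controls and 9.58, 9.38 and 9.52 with DEHP (-0.54 ± 0.08, adjusted p = 0.0147). Rps12 read 11.67, 11.66, 11.82 and 11.96 against 11.47, 11.22 and 11.21 (-0.48 ± 0.08, adjusted p = 0.023). The groups did not overlap for either gene, and KO-118 was the highest animal for each. Rpl14 (-0.47), Rps28 (-0.44) and Rps9 (-0.39) fell as well, with adjusted p from 0.0242 to 0.0329, and so did Rps14 and Rps21. Ribosomal protein genes have many near-identical pseudogenes, and Rps19-ps3, a pseudogene, was itself among the 62. Rrs1, a factor of ribosome assembly, read 7.67 to 7.83 in KO-115, KO-116 and KO-117, was higher still in KO-118, read 6.66, 7.30 and 7.09 with DEHP, and fell by 0.78 ± 0.13 (adjusted p = 0.0213). The small nucleolar RNAs Snord22 and Snora41, of the class that guides chemical modification of ribosomal RNA, fell as well (-0.73 ± 0.12 and -0.61 ± 0.11, adjusted p = 0.023 and 0.0327).

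Of 71 measured subunits and factors of oxidative phosphorylation 6 fell and 0 rose (median -0.19), against 0.311% and 0.16% of all genes. In 31 of the 71 the groups did not overlap, against 9.99% of all genes. Uqcr11, a subunit of complex III, read 9.88, 9.65, 9.89 and 10.01 in controls and 9.51, 8.98 and 9.39 with DEHP (-0.56 ± 0.11, adjusted p = 0.0383). Atp5e, of ATP synthase, read 10.13, 9.89, 10.24 and 10.37 against 9.79, 9.22 and 9.55 (-0.64 ± 0.13, adjusted p = 0.0408). KO-122 was the lowest animal for both. Atp5k (-0.53), Uqcrh (-0.53) and Ndufa13 (-0.39) fell with adjusted p from 0.0322 to 0.045, as did Atp5l, and Atp5mpl, another ATP synthase protein, fell by 0.44 ± 0.09 (adjusted p = 0.0442). After subtraction of each array's median 0 of the 71 and 4 of the 55 ribosomal genes were called, and after quantile normalization 17 and 13, all downward. With the 7 null arrays alone neither list had a call. Without KO-115, KO-117, KO-118, KO-122 or KO-123, 0 oxidative phosphorylation genes were called, against 12 without KO-121. For the ribosomal genes the count was 0 without KO-122, 1 without KO-117, KO-118 or KO-123, 10 without KO-116 and 15 without KO-121.

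Neighbouring housekeeping lists had medians below that of all genes and almost no calls. The proteasome list held 1 fall among 41 (median -0.10), against falls in 0.311% of all genes. It was that of Psma3, a subunit of its core (-0.44 ± 0.08, adjusted p = 0.0351). The count of falls was 5 without KO-116, 3 without KO-121, where 1 gene rose, 1 without KO-123 and 0 without KO-115, KO-117, KO-118 or KO-122. No gene of the spliceosome list passed (46 measured, median -0.13, 19 at an unadjusted p below 0.05 in limma), where Snrpe and Snrpd2, proteins of its core particles, were at -0.43 and -0.41 with adjusted p of 0.0635 and 0.0654. Among 75 genes of the mitochondrial ribosome 0 were called by limma (median -0.07), and 20 had an unadjusted p below 0.05. Across all 19938 genes the count at that unadjusted p was 2450. Mrps28 and Mrps9 were at -0.47 and -0.32 (adjusted p = 0.0621 and 0.0768).

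The falls were on the whole in short genes. Their median genomic span was 5398 bases, against 30195 for the 32 rises, 17740 for all genes and 22408 for the 9969 genes above the median level. A span below 10000 bases was found in 40 of 62 falls (64.5%) and 8 of 32 rises (25%). The share was 35.2% of all genes and 26.5% of the genes above the median level. Across genes above the median level the null difference followed span, with medians of -0.04, -0.02, 0.01, 0.03 and 0.05 over 5 equal classes of genes from the shortest to the longest. In wild-type livers the same medians were -0.00, -0.01, -0.00, -0.01 and -0.04. By animal, the shortest class read -0.01, -0.04 and -0.06 in the DEHP animals and -0.02 to 0.02 in the controls. Control KO-118 was the highest control in every class, and the median of the 62 falls in it was 0.13, against -0.10 in KO-116, -0.02 in KO-115 and 0.01 in KO-117. The DEHP animals read -0.37, -0.58 and -0.45. The part that gene span, or what moves with it, had in the falls was not tested.

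**Figure D4:**
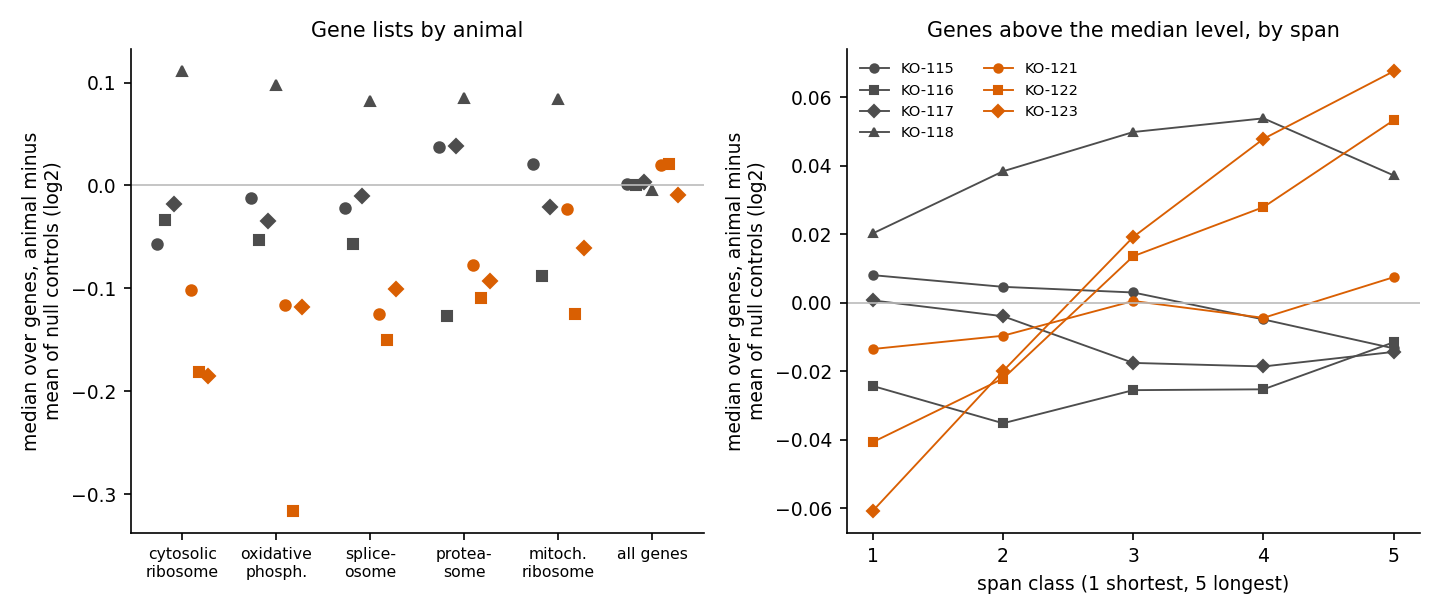
Left, median over the genes of 5 lists and over all genes in each null animal, relative to the mean of the null controls; right, the same median over genes above the median level in 5 equal classes of genomic span. The DEHP animals (orange) read -0.10 to -0.18 for the cytosolic ribosome and -0.12 to -0.32 for oxidative phosphorylation; control KO-118 is the highest for every list, and control KO-116 is the lowest animal for the proteasome.

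The largest falls were those of a lipid transporter, a chemokine and an inhibitor of transcription factors. Mfsd2a, a lysophosphatidylcholine transporter that rises in fasting, read 9.42, 8.72, 8.93 and 8.76 in controls and 7.51, 8.17 and 7.61 with DEHP and fell by 1.19 ± 0.25 (fold 0.437, adjusted p = 0.0483). The chemokine Ccl3 read 5.37, 5.45, 5.97 and 4.86 against 4.34, 4.66 and 4.01 and fell by 1.07 ± 0.21 (adjusted p = 0.0369). Both passed narrowly, and Mfsd2a was called in 1 and Ccl3 in 2 of the 7 fits without an animal. Id3, an inhibitor of helix-loop-helix factors and a target of bone morphogenetic proteins, read 8.73, 8.73, 8.78 and 8.99 against 8.08, 7.56 and 7.94 and fell by 0.94 ± 0.18 (fold 0.52, adjusted p = 0.0351). Its relative Id1 read 6.79, 6.94, 7.09 and 7.01 against 6.36, 6.41 and 6.34 and fell by 0.59 ± 0.12 (adjusted p = 0.0461). Id1 and Id3 were the 2 calls among 31 genes of that pathway (median -0.01), against falls in 0.311% of all genes. Hamp, the hepcidin gene and a further target, was at -0.17 ± 0.07 (adjusted p = 0.308). Without KO-115, KO-117, KO-118, KO-122 or KO-123 neither Id1 nor Id3 was called.

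Lyz1, the lysozyme of Paneth cells, read 6.09, 5.98, 6.19 and 5.93 in controls and 5.39, 5.57 and 5.41 with DEHP and fell by 0.59 ± 0.09 (adjusted p = 0.0101). It is close in sequence to the macrophage lysozyme Lyz2, and the probe set may read both. The macrophage elastase Mmp12, named after its values were seen, had a larger difference that missed the threshold. It read 7.44, 7.54, 9.33 and 6.44 in controls and 5.72, 6.19 and 5.30 with DEHP, groups that did not overlap (-1.96 ± 0.43, fold 0.258, adjusted p = 0.0582). KO-117 stood highest. Rdh5, a retinol dehydrogenase, fell by 0.35 ± 0.07 (adjusted p = 0.0351). Glrx3, an iron-sulfur handling glutaredoxin (-0.70 ± 0.14), the centrosomal Cetn3 (-0.62 ± 0.12) and Sap30, a subunit of a histone deacetylase complex (-0.62 ± 0.13), fell with adjusted p of 0.0442, 0.0351 and 0.0474. Unc50 (-0.60), Fam136a (-0.53) and Thoc7 (-0.47), the last a subunit of the mRNA export complex THO, fell too, with adjusted p of 0.0329, 0.0351 and 0.023.

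The remaining rises were named after their values were seen, except Stard13 and 4931406C07Rik, as were Acsm1 and Rdh5 above. Scpep1, a serine carboxypeptidase of lysosomes, read 9.82, 9.74, 9.65 and 9.76 in controls and 10.10, 10.28 and 10.25 with DEHP and rose 1.39-fold (0.47 ± 0.07, adjusted p = 0.014). Lipa, the lysosomal acid lipase that frees cholesterol from its esters, read 10.66 to 10.71 against 10.98 to 11.13 and rose 1.30-fold (adjusted p = 0.0329). Ifnar2, a chain of the type I interferon receptor, rose by 0.46 ± 0.08 (adjusted p = 0.0213), while 0 of 29 interferon-stimulated genes were called (median -0.05, 4 at an unadjusted p below 0.05). Slc23a1, a vitamin C transporter (0.44 ± 0.08, adjusted p = 0.0322), Tcn2, the vitamin B12 carrier transcobalamin (0.32 ± 0.07, adjusted p = 0.0415), and Ggcx, the vitamin K-dependent carboxylase of clotting factors (0.31 ± 0.06, adjusted p = 0.0364), rose as well. Stard13 rose by 0.40 ± 0.07 (adjusted p = 0.023) and 4931406C07Rik by 0.62 ± 0.12 (adjusted p = 0.0405). Atl3, Nsmf, Nadk2, Grina, Pnkd and Pter completed the 32. Lists of the cell cycle (46 genes), p53 targets (19), endoplasmic reticulum stress (25) and heat shock (18) held 0 calls by limma. So did those of immediate early genes (24), clock genes (20) and nuclear receptors (33). In this order 7, 2, 7, 4, 5, 1 and 6 genes had an unadjusted p below 0.05, against 2450 of all 19938.

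The comparison with wild-type livers addressed which changes were shared by animals that have the receptor. In wild-type livers 770 genes were called (3.86%), of which 456 rose (2.29%) and 314 fell (1.57%). Of the 32 null rises 15 also rose in wild-type livers and 1, Cyp2c37, fell there. The 15 were Acsf2, Hacl1, Hmgcs1, Idi1, Orm1, Orm2, Aldh1a1, Ephx1, Cyp3a44, Scpep1, Lipa, Ifnar2, Atl3, Grina and Pter, and in none of them did the test of the difference pass. Of the 62 null falls 2, Slc39a4 and Rdh5, also fell and 1, Fabp2, rose. The median wild-type difference was 0.26 over the 32 rises and 0.03 over the 62 falls.

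The difference between the null and the wild-type response was called in 179 of 19938 genes (0.898%), positive in 67 and negative in 112. Of the 179, 30 were among the 94, 7 of the rises and 23 of the falls. The rises of Cyp2c55, Cyp2b10, Cyp2c29 and Cyp2c37 exceeded the wild-type response by 1.54, 1.09, 0.53 and 1.40 on the log2 scale (adjusted p of the difference 0.00604, 0.0308, 0.0224 and 0.00422). In wild-type livers Cyp2c55 was at 0.54 (adjusted p = 0.0716), Cyp2b10 at 0.46 (adjusted p = 0.115) and Cyp2c29 at 0.10 (adjusted p = 0.499), and Cyp2c37 fell by 0.51 (adjusted p = 0.0452). The other 3 such rises were Acsm2 (0.72, adjusted p = 0.0213), Stard13 (0.62, adjusted p = 0.00537) and Ggcx (0.45, adjusted p = 0.0205). Over the whole list of 30 CAR targets, 7 rose and 4 fell in wild-type livers (median 0.11), against 2.29% and 1.57% of all genes. The null response was called as higher in 5 of the 30 and as lower in 0, against 67 and 112 of all 19938 genes. Of the 15 PXR targets 6 rose and 1 fell in wild-type livers (median 0.30), and the null response was called as higher in 1. Among the falls, Lyz1 differed by -0.84 (adjusted p = 0.00338), Snord22 by -0.93 (adjusted p = 0.0185), Uqcr11 by -0.77 (adjusted p = 0.0249) and Rps13 by -0.59 (adjusted p = 0.0234). Rdh5 fell in both genotypes and fell less in null livers (difference 0.51, adjusted p = 0.0178). Of 71 genes of oxidative phosphorylation 5 were called as lower in the null response. The count was 4 of 55 for the cytosolic ribosome and 5 of 41 for the proteasome, against 112 of all 19938 genes. For cholesterol synthesis no gene was called in that test. The wild-type median of that list was 0.53 with 12 of 23 rising, against 2.29% of all genes. A p above the threshold does not show that the genotypes responded alike: for Hmgcs1 the difference was -0.59 (adjusted p = 0.221). Leaving out null animals moved the 179 by over 1.5 times for 5 of the 7, to 65 without KO-122, 86 without KO-115, 104 without KO-117, 113 without KO-123 and 299 without KO-116.

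**Figure D5:**
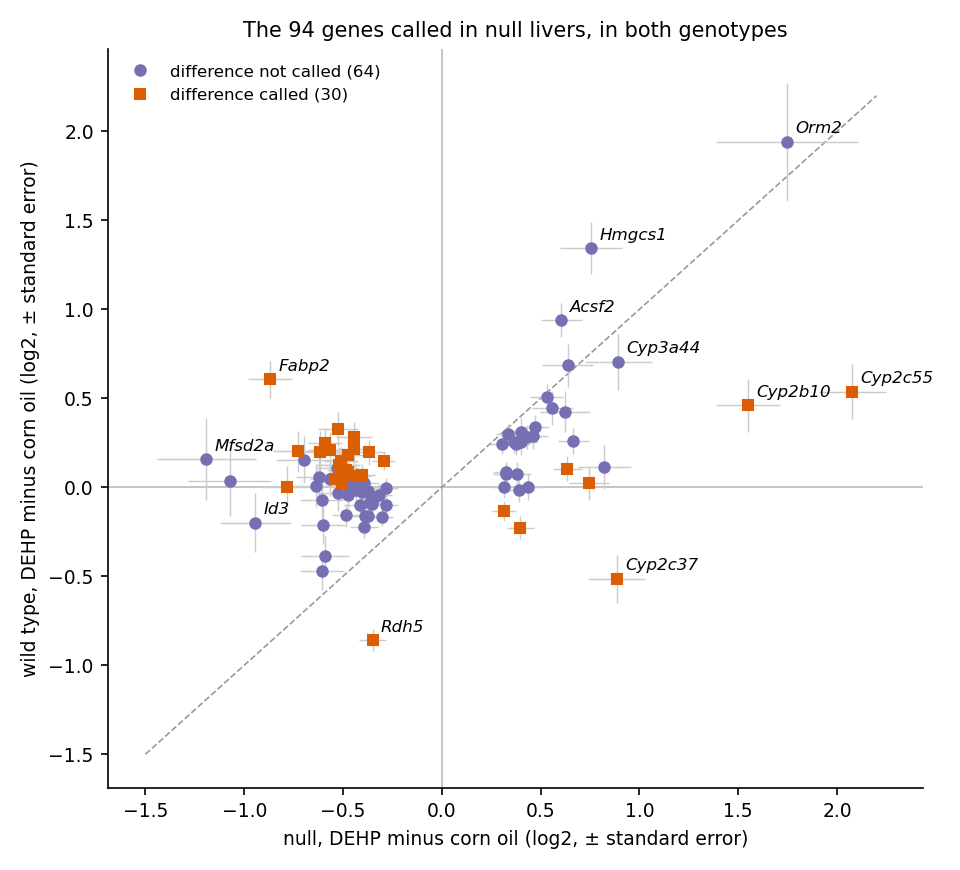
Log2 difference, DEHP minus corn oil, in null (x axis) and wild-type livers (y axis) for the 94 genes called in null livers, with limma standard errors; the dashed line marks equal responses. Squares are the 30 genes whose responses differed by the test of the difference, among them Cyp2c55, Cyp2b10 and Cyp2c37 below the line and Fabp2 in the upper left.

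The threshold of 0.05 cut through a dense set of genes. Just inside it lay Bola2 and Mzt2 (both 0.0474) and Mfsd2a (0.0483), and just outside lay Igfbp1 and Rps4x (both 0.0511) and Gtf2h5. Igfbp1, the insulin-like growth factor binding protein of fasting liver, read 7.77, 7.58, 7.86 and 7.29 in controls and 8.43, 8.16 and 8.19 with DEHP, without overlap (0.64 ± 0.14, adjusted p = 0.0511).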

How the data were processed

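The intensity values deposited by the authors, 1 column per animal, were positive and linear (1.77 to 23337) with near-equal medians, so they had been brought to a common scale before deposit. The method, and any batch, is not given in the sources used. Per the labels' protocols, RNA was isolated with mirVana, and 300 ng were amplified and labelled with the Affymetrix WT cDNA kit. No further normalization was applied and log2 was taken. Of 35494 probe sets 21789 carried 1 symbol, 1621 several and 12084 none, by the platform annotation, which can be old. Of the 21789, 21698 matched a RefSeq gene ID and 0 symbols changed. Where a gene had several probe sets (999 genes), the one of highest mean was used.

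The limma model (3.58.1, R 4.3.3) held all 15 arrays with a mean for each group and moderated errors (residual degrees of freedom 11, prior 4.68). Contrasts were DEHP against corn oil in each genotype and their difference. Adjusted p values are Benjamini-Hochberg over 19938 genes, with a threshold of 0.05, and the script was tested on simulated data. The number of arrays limits the precision. The model shares 1 spread between the 4 groups, and it was the main design because each null group is small. Genomic spans, symbols and promoters came from RefSeq tables. Python 3.11.15, pandas 2.3.3 and matplotlib 3.10.9 were used.

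The comparison, the 38 gene lists and 14 marker lists, and the rule for named genes were chosen with earlier results of these data known. The rule took the PPAR, CAR and PXR genes, the 15 largest rises and falls without overlap, up to 5 called members per list (or up to 2 of lowest p), fixed landmark genes, the genes of lowest p in the difference between genotypes and those next to the threshold. Lists are described by counts and medians, without a set test. Alternatives were other normalizations, probe set choices, filters, offsets and variance priors, array weights, the null arrays alone, and leaving out each null animal.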

Additional observations from a re-analysis of the deposited data

Results flagged for a closer look

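The response to DEHP differed between null and wild-type livers, by the limma test of the difference (adjusted p below 0.05), in the genes that follow, given as null minus wild-type response on the log2 scale. It was positive for the cytochromes Cyp2c55 (1.54), Cyp2c37 (1.40), Cyp2b10 (1.09), Cyp1a2 (0.63) and Cyp2c29 (0.53). Positive values were also found for Acsm2 (0.72), Stard13 (0.62), Rdh5 (0.51), F7 (0.49), Serpind1 (0.45) and Ggcx (0.45). The PPARα targets had the most negative values: Cyp4a14 (-4.84), Vnn1 (-3.71), Cyp4a10 (-3.18), Acot1 (-2.97), Ehhadh (-2.60), Cd36 (-2.59) and Fabp2 (-1.48). Smaller negative values were those of Snord22 (-0.93), Fam136a (-0.86), Rrs1 (-0.79), Uqcr11 (-0.77), Atp5mpl (-0.73), Psma3 (-0.66), Thoc7 (-0.66), Snrpe (-0.64), Rps13 (-0.59), Rps12 (-0.56), Rps28 (-0.50), Lyz1 (-0.84) and Sap30 (-0.81). Genotype and substrain cannot be told apart in these differences.

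Dixon's test, which compares the gap of the end value with the range of the 4 null controls, passed in 5 of 95 named genes. It flags about 1 in 20 groups by chance. KO-115 was high for Aldh1a1 (12.67), Nr1i2 (8.86) and Cyp4a10 (5.87) and low for Mt1 (9.41). For Cyp1a1 it passed for KO-118 (4.35) only because the other controls were nearly equal at 4.34, and the gap is small.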

How the results depend on the processing

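In place of the 94 genes called in null livers, limma called 1 with only the null arrays in the model, 34 with array medians subtracted, 56 with array weights, 161 after quantile normalization, 274 with an intensity trend in the variance prior, 287 with log2 of the value plus 16, and 427 when only genes above the median level were tested, with fewer genes in the adjustment. Of the 94, 34 remained with array medians subtracted, 55 with weights, 83 after quantile normalization, and 94 with the trend or the offset. Leaving out 1 null animal gave 9 to 168. The difference between genotypes was called in 0.898% of genes tested, 0.592% with array medians subtracted, 2.03% with the trend, 2.10% with the offset, 5.72% of genes above the median level, and 0.326% to 1.5% with an animal left out. The cause of these shifts was not tested. The sign turned only for genes that did not pass. Nr1i3 was at -0.059 after quantile normalization and -0.0033 with array weights, and from -0.050 to 0.065 with an animal left out. Cyp4a14 was at -0.061 with array weights and from -0.19 to 0.65 with an animal left out. In the same fits Cyp1a1 ran from -0.20 to 0.11, Pparg from -0.016 to 0.16, Cyp4a10 from -0.21 to 0.13, Cd36 from -0.17 to 0.14, Vnn1 from -0.085 to 0.13 and Acta1 from -0.053 to 1.96. For the 95 genes given with values, 752 other-setting values held 600 on the same side of the threshold, 104 that lost and 45 that gained the call, and 665 values with an animal left out held 429, 211 and 11. No paired analysis was possible because the groups share no animal numbers. No detection calls were used here, so how far low genes such as Cyp2c55 in the controls lay above background is unknown.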

Other observations

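Of 25 genes at least 2-fold apart between the null groups, 5 passed the test, and 9 were at least 1 log2 unit higher in KO-121 than in every other null animal. Such genes, set apart in 1 animal only and named after their values were seen, numbered 47 in KO-121, led by the muscle genes Myh1, Atp2a1, Myh2 and Acta1. They numbered 0 to 8 in the other 6 animals. In control KO-115 the 8 included Chil4, Retnla and Postn, in control KO-117 the 2 were the macrophage genes Gpnmb and Mmp12, and in control KO-118 the 4 were the interferon-stimulated Ifi44l, Ifit3, Ifit2 and Ifi202b. In KO-122 the 5 included the acute phase genes Lcn2 and Orm3.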
